A study of Mus musculus with 12 samples.

Results

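The refeeding response of control liver was described from 6 of the 12 arrays of the series, the 3 titled control refed and the 3 titled control fasted, chosen by title alone. The series measured mouse liver RNA on an Affymetrix expression array, in mice labelled control or LG2KO, each either fasted or fasted and then refed, with 3 arrays in each of the 4 groups. All mice were of a mixed SV129 and C57Bl/6 background. The LG2KO mice, read here as lacking the glucose transporter Glut2 in the liver, carry a tamoxifen treatment label, and the controls carry no such label. Each array held labelled RNA pooled from 3 animals, so the spread between arrays is a spread between pools, and p-values measure that spread only. The length of the fast and of refeeding, the diet, the sex and the age are not given in the labels used here.

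In fasting, the liver releases glucose made from glycogen, lactate and amino acids, and it burns fatty acids to ketone bodies under glucagon and glucocorticoids. A meal raises insulin, which through the kinase Akt keeps FoxO transcription factors out of the nucleus, and through SREBP transcription factors turns on the synthesis of fatty acids and cholesterol. Refeeding also brings amino acids and a return of protein synthesis and secretion, which load the endoplasmic reticulum (ER), where secreted proteins are folded.

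Of the 18194 genes tested, 599 were higher after refeeding (3.29%) and 577 were lower (3.17%), together 1176 genes (6.46%), at a limma adjusted p below 0.05. All values are log2 expression, so a difference of 1 is a doubling, and errors of differences are standard errors (SE) from the fit with n = 3 pools per group. Changes of at least 2-fold were found in 117 of the higher genes and 89 of the lower ones. The genes with the largest rises were led by cholesterol synthesis, and the genes with the largest falls by the metallothioneins. The median difference over all genes was -0.01, with 8516 genes above 0 and 9678 below. In liver tissue, fewer cells of a type and less RNA per cell cannot be told apart.

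Control refed replicate 1 stood apart from the other control arrays. Its correlation over all probe sets was 0.987 and 0.984 with the other refed control arrays and 0.989 with LG2KO fasted replicate 1, whereas the other control pairs within a group reached up to 0.996. On the first principal component, which held 40.2% of the variance, it lay at -1.52, between the fasted control arrays (-18.68 to -13.97) and the other refed ones (20.26 and 23.03). On the second component, with 28.1% of the variance, it was the most extreme of the 12 arrays, at 37.1, against -11.4 to 6.39 on the other control arrays. Without it, 862 genes were higher (4.74%) and 605 lower (3.33%), together 8.06% of all genes, and 1013 of the 1176 genes passed again. LG2KO fasted replicate 3, which enters the shared estimate of spread, also stood apart, at -31.37 on the second component, and without both arrays 1152 genes were higher (6.33%) and 1050 lower (5.77%). Leaving out other control arrays lowered the total to 706 (without fasted replicate 1), 742 (without refed replicate 3), 747 (without fasted replicate 2), 758 (without refed replicate 2) and 795 (without fasted replicate 3), and 567 genes passed without each of the 12 arrays in turn. Counts below are given with and without refed replicate 1. List and marker counts are to be read beside the 3.29% of all genes higher and 3.17% lower. Brighter genes passed more often. With only the 9097 genes above the median level tested, 746 were higher and 728 lower. With only the 4549 genes in the top 25% tested, 596 were higher and 583 lower. A list count near these shares is no result about its members.

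**Figure D1:**
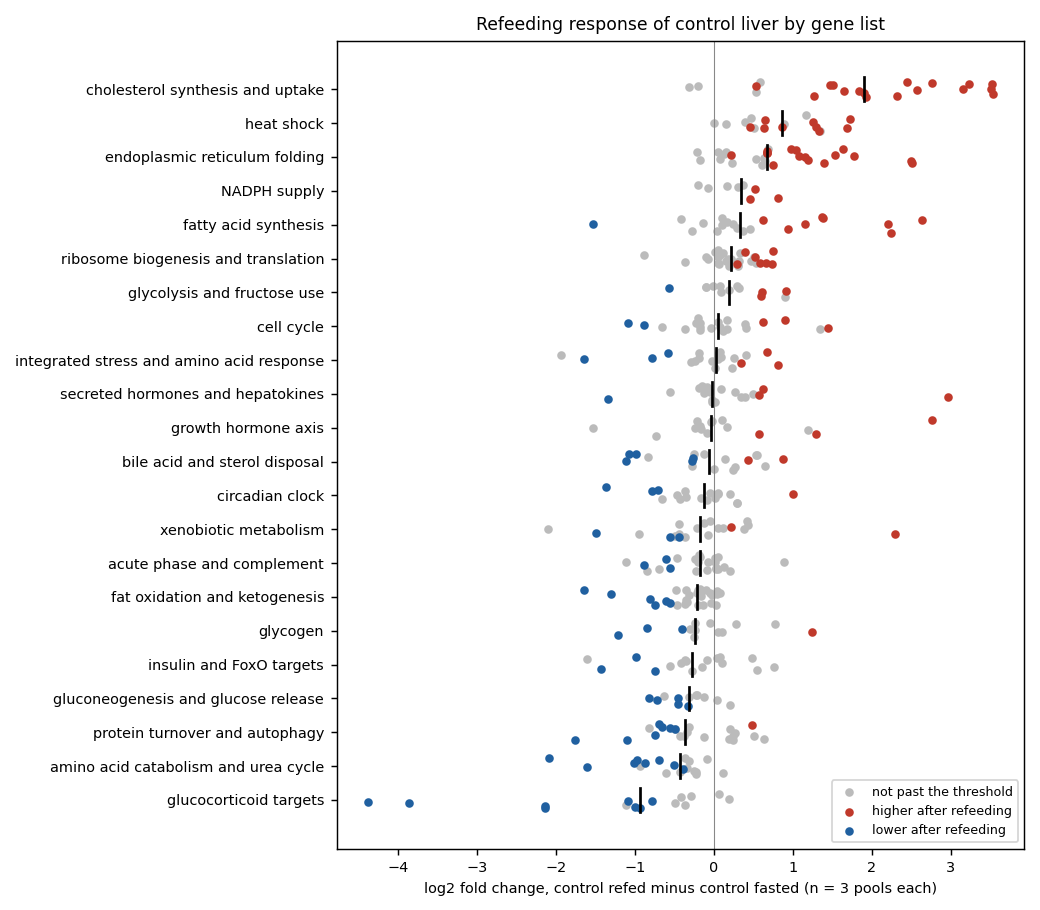
Log2 fold change of every measured member of 22 gene lists, control refed minus control fasted, with 3 pools per group. Each point is a gene, red where it was higher at an adjusted p below 0.05, blue where it was lower and grey otherwise, and the black bar is the list's median. The cholesterol list lay farthest to the right (median 1.90) and the glucocorticoid list farthest to the left (median -0.94).

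A few members of a list of insulin and FoxO targets fell. Of its 17 measured members, 3 were lower and 0 higher, with a median of -0.27, and without refed replicate 1 the count was 4 lower. Over all genes 3.17% were lower, and a larger share of the brighter genes. Whether insulin or FoxO acted on these genes was not tested. Trib3, a pseudokinase that binds Akt, was at 8.21, 8.07 and 8.36 on the fasted arrays and 6.88, 6.79 and 6.69 on the refed ones. It fell by 1.43 ± 0.13 (adjusted p 3.11e-05). Irs2, an adaptor of the insulin receptor, was at 6.80, 7.10 and 6.91 in the fasted pools and 5.91, 5.88 and 6.09 in the refed pools (-0.98 ± 0.19, adjusted p 0.00729). Foxo1 itself went from 9.01, 8.79 and 9.08 to 8.24, 8.15 and 8.23 (-0.75 ± 0.13, adjusted p 0.00365). Probe sets of Foxo1 ranged from -0.75 to -0.11. For these 3 genes each refed array lay below each fasted array, and over all genes the refed arrays lay wholly above the fasted ones for 9.64% and wholly below for 10.8%, together 20.5%.

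Igfbp1, an insulin-repressed binding protein of insulin-like growth factors, depended on refed replicate 1. Its values were 12.21, 11.36 and 11.87 on the fasted arrays and 11.63, 8.33 and 10.69 on refed replicates 1, 2 and 3. Refed replicate 1 lay within the fasted range, and the difference was -1.60 ± 0.59 (adjusted p 0.162), or -2.30 without that array (adjusted p 0.0149). Ppargc1a, a coactivator of fasting genes, differed by -0.37 ± 0.13 (adjusted p 0.14).

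Some genes of glucose production fell. Of 12 measured members of the gluconeogenesis and glucose release list, 5 were lower and 0 higher (median -0.32), 6 without refed replicate 1 and 3 without fasted replicate 1. Pck1, which makes phosphoenolpyruvate from oxaloacetate, was at 13.14, 12.92 and 12.97 on the fasted arrays and 12.64, 11.85 and 12.37 on the refed ones. That was a difference of -0.72 ± 0.16 with adjusted p 0.0153, and 0.0709 without fasted replicate 1. The groups did not overlap, and refed replicate 1 was the highest of the refed arrays. Pdk2, a kinase that switches off pyruvate dehydrogenase, fell by 0.82 ± 0.13 (adjusted p 0.00197) in a comparison that passed without each array. G6pc, the glucose-6-phosphatase that releases free glucose, read 11.87, 11.47 and 11.59 in the fasted state and 11.82, 11.19 and 11.23 after refeeding. Refed replicate 1 lay with the fasted arrays, and the difference was -0.23 ± 0.15 (adjusted p 0.542), against -0.43 without that array (adjusted p 0.0314). The glucose-6-phosphate transporter Slc37a4 (-0.45 ± 0.10), pyruvate carboxylase Pcx (-0.33 ± 0.07) and the transcription factor Creb3l3 (-0.45 ± 0.09) passed with all arrays. Each missed the threshold without a fasted array, replicate 1 for Slc37a4 (adjusted p at most 0.0532), replicate 3 for Pcx (at most 0.0511) and replicate 2 for Creb3l3 (at most 0.0535). Pdk4, another pyruvate dehydrogenase kinase, did not pass (-0.63 ± 0.28, adjusted p 0.287).

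Among 13 measured genes of glycolysis and fructose use, 3 were higher and 1 lower (median 0.19), with the same counts and a median of 0.25 without refed replicate 1. Liver pyruvate kinase, Pklr, was at 8.82, 8.73 and 9.02 on the fasted arrays and 9.57, 9.92 and 9.85 on the refed arrays, without overlap. It rose by 0.92 ± 0.12 (adjusted p 3.87e-04). Mlxipl, which encodes the glucose-responsive factor ChREBP, was higher by 0.60 ± 0.13 (adjusted p 0.0169), and missed the threshold without fasted replicate 1 or 3 (at most 0.0774). The fructose-pathway kinase Tkfc was higher by 0.61 ± 0.13 (adjusted p 0.0141), rising to as much as 0.0665 without refed replicate 2, refed replicate 3 or fasted replicate 2. Txnip, an inhibitor of glucose uptake, was lower by a difference of -0.57 ± 0.13 (adjusted p 0.0191), rising to as much as 0.0875 without refed replicate 2 or 3 or fasted replicate 1 or 2. The glucose transporter Slc2a2, which is the Glut2 gene, did not pass (0.32 ± 0.25, adjusted p 0.642).

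Glycogen genes moved in opposite directions, with 1 of 13 measured members higher and 3 lower (median -0.24), the same counts without refed replicate 1. Ppp1r3b and Ppp1r3g both encode subunits that bring protein phosphatase to glycogen. Ppp1r3b was at 9.69, 9.01 and 9.89 fasted and 11.09, 10.60 and 10.65 refed (1.25 ± 0.26, adjusted p 0.0129, and 0.0548 without fasted replicate 2). Ppp1r3g was at 4.89, 5.69 and 5.92 fasted and 4.33, 4.27 and 4.28 refed (-1.21 ± 0.22, adjusted p 0.00496). Neither pair of groups overlapped. Liver glycogen synthase, Gys2, fell by 0.85 ± 0.17 (adjusted p 0.0085), and glycogen phosphorylase, Pygl, did not pass (0.28 ± 0.12, adjusted p 0.24).

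Several genes of fatty acid synthesis rose. Of 20 genes on the list 8 were higher and 1 lower, with a median of 0.33, and without refed replicate 1 the counts were 8 and 2. Fasn, the fatty acid synthase, was at 9.05, 9.09 and 8.80 on the fasted arrays and 11.28, 11.95 and 11.65 on the refed ones. Every refed pool was above every fasted pool, and the rise was 2.64 ± 0.16, or 6.25-fold (adjusted p 2.00e-06). Mid1ip1, which helps acetyl-CoA carboxylase to polymerise, was at 8.95, 9.11 and 8.88 fasted and 11.25, 11.37 and 11.06 refed (2.24 ± 0.10, adjusted p 4.17e-07). Elovl6, which lengthens palmitate, went from 5.91, 6.41 and 6.79 to 8.92, 8.62 and 8.19 (2.21 ± 0.27, adjusted p 3.29e-04). Probe sets of Elovl6 ranged from 0.24 to 2.21. Srebf1, the gene of the insulin-responsive SREBP, was at 10.51, 10.75 and 10.67 fasted and 12.25, 11.89 and 11.92 refed (1.38 ± 0.10, adjusted p 7.59e-06), and refed replicate 1 was the highest array.

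Thrsp, a lipogenic protein related to Mid1ip1, rose by 1.37 ± 0.22 (adjusted p 0.00202). Acly, which makes cytosolic acetyl-CoA from citrate, rose by 1.16 ± 0.13 (adjusted p 2.06e-04), and acetyl-CoA carboxylase, Acaca, by 0.94 ± 0.11 (adjusted p 3.33e-04). Probe sets of Acly ranged from 0.10 to 1.38. The list did not move as a whole. Scd1, the stearoyl-CoA desaturase, was at 12.62, 12.33 and 12.42 fasted and 12.47, 11.93 and 11.74 refed, a difference of -0.41 ± 0.16 that did not pass with all arrays (adjusted p 0.171) and passed as lower without refed replicate 1 (-0.63, adjusted p 0.0043). Pnpla3 differed by 0.11 ± 0.15 (adjusted p 0.833). The member that fell was Lpin1, a phosphatidate phosphatase that also acts as a coactivator of fat oxidation genes, at 10.90, 10.12 and 10.80 fasted and 9.11, 9.0 and 9.11 refed (-1.53 ± 0.18, adjusted p 3.00e-04). Among 8 measured genes that supply NADPH for these steps 3 were higher and 0 lower (median 0.34). Without refed replicate 1 the counts were the same and the median was 0.19. Pgd, of the oxidative pentose phosphate pathway, rose by 0.82 ± 0.14 (adjusted p 0.0029), and transketolase, Tkt, by 0.46 ± 0.09 (adjusted p 0.00627). Rpia, ribose-5-phosphate isomerase, was higher by 0.52 ± 0.11 (adjusted p 0.0173), rising to as much as 0.0785 without refed replicate 2 or fasted replicate 1 or 2.

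Genes along most of cholesterol synthesis rose. Of 26 genes on the list 21 were measured, 17 were higher and 0 lower, and the median was 1.90 against -0.01 over all genes. Without refed replicate 1 the count was 18 and the median 2.31, and leaving out any other array gave 16 to 18. Mvd, which forms isopentenyl diphosphate from mevalonate diphosphate, was at 6.03, 6.38 and 6.04 on the fasted arrays and 8.80, 10.26 and 10 on the refed ones. Its rise of 3.54 ± 0.31 (11.6-fold, adjusted p 3.07e-05) was the largest among all genes named here, and refed replicate 1 was the lowest of the refed arrays. Sqle, squalene epoxidase, was at 7.24, 8.56 and 7.22 fasted and 10.70, 11.52 and 11.38 refed (3.53 ± 0.38, adjusted p 1.27e-04). Fdps, which makes farnesyl diphosphate, went from 8.79, 9.63 and 8.63 to 11.79, 13.01 and 12.77 (3.51 ± 0.35, adjusted p 8.04e-05). Hmgcs1, the cytosolic HMG-CoA synthase at the head of the pathway, went from 7.44, 8.50 and 7.96 to 11.06, 11.27 and 11.03 (3.16 ± 0.30, adjusted p 5.22e-05). In all 4 genes the lowest refed array was above the highest fasted array, and fasted replicate 2 was the highest of the fasted arrays. Another probe set of Fdps differed by -0.03, and probe sets of Hmgcs1 ranged from 0.70 to 3.23.

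Later enzymes rose as well. Idi1, the isomerase after Mvd, was higher by 3.24 ± 0.32, the lanosterol demethylase Cyp51 by 2.76 ± 0.31, lanosterol synthase Lss by 2.57 ± 0.29, the methylsterol oxidase Msmo1 by 2.45 ± 0.26 and the sterol dehydrogenase Nsdhl by 2.32 ± 0.34. Each of these passed without each of the 12 arrays, with adjusted p of at most 0.00898. Insig1, which holds SREBPs in the ER when sterols are plentiful, was at 8.54, 9.22 and 8.89 fasted and 10.88, 10.86 and 10.70 refed (1.93 ± 0.23, adjusted p 3.33e-04). Its relative Insig2 did not pass (-0.20 ± 0.14, adjusted p 0.554). Srebf2, the sterol-regulated SREBP gene, was higher by 0.53 ± 0.13 (adjusted p 0.0311), rising to as much as 0.134 without refed replicate 2 or 3 or any fasted array. Aacs, which activates acetoacetate for lipid synthesis and is on no list, was at 7.23, 7.55 and 7.43 fasted and 9.62, 10.12 and 9.68 refed (2.40 ± 0.15, adjusted p 3.99e-06). Probe sets ranged from 0.20 to 2.79 for Aacs, from 0.32 to 3.67 for Cyp51 and from 0.27 to 2.45 for Msmo1.

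The promoter of Hmgcs1 is shown because it was the only window of the cholesterol list that held the letters TCACNCCAC of a sterol regulatory element, the site that SREBPs bind. Windows ran from 250 bases before to 50 bases after each RefSeq start of build GRCm38.p6, both strands were searched, and 14453 of the 18194 genes had at least 1 of the 18110 windows. Letters of the match are in capitals, on the gene's own strand.
Hmgcs1, chr13:119690101-119690400, + strand: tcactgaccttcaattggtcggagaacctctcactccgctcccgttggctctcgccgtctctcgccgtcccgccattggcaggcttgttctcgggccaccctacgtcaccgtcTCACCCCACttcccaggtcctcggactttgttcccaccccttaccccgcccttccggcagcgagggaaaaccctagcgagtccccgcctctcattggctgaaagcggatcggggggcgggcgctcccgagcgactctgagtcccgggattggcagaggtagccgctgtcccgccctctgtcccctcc
The match began at -137 from the gene start. These letters were found in 1 of 23 windows of the cholesterol list (4.35%), in 1.40% of windows of higher genes, 2.06% of windows of lower genes and 1.22% of all windows, and the absence of these letters from a window says nothing of SREBP binding.

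**Figure D2:**
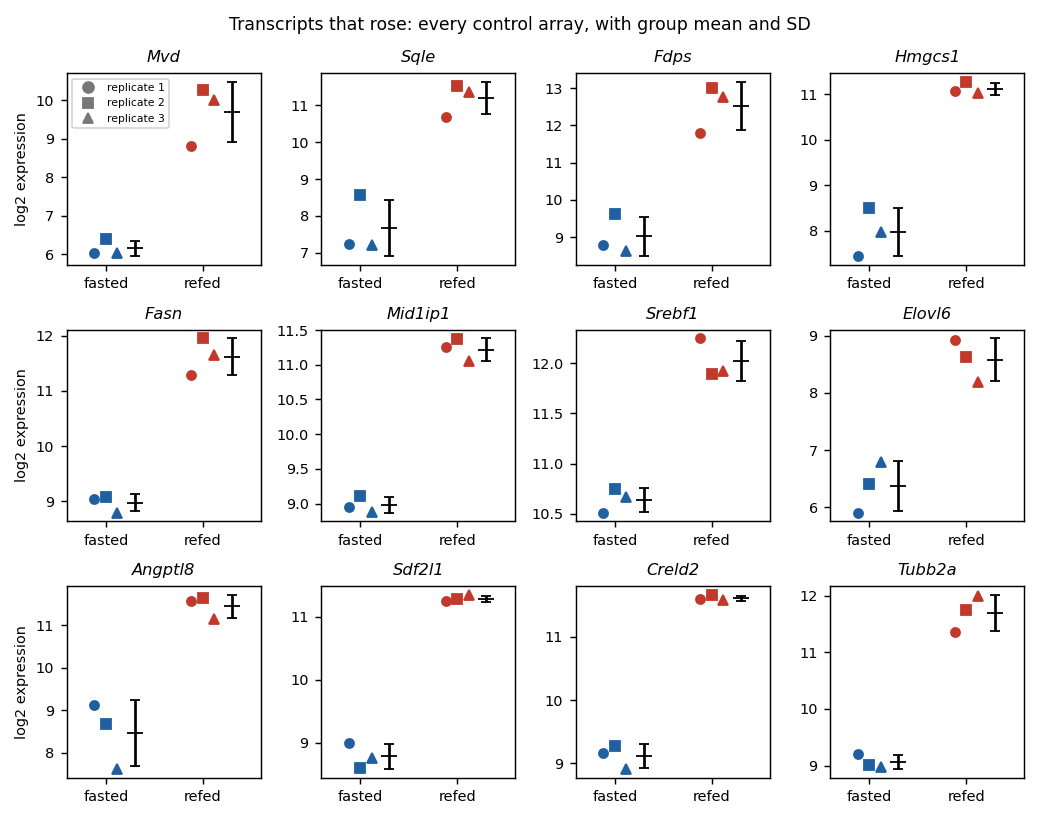
Log2 expression of 12 transcripts that rose, on each of the 3 fasted (blue) and 3 refed (red) control arrays, with the group mean and SD beside the points. Marker shape gives the replicate number, each panel has its own axis, and in every panel all refed arrays lie above all fasted arrays. Refed replicate 1 (circle) is the lowest refed array for Mvd at 8.8 and the highest for Srebf1 at 12.25.

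Transcripts of fat oxidation fell only in part. Of 27 measured members 6 were lower and 0 higher (median -0.21), and without refed replicate 1 the count was 5. Cpt1a, which admits long-chain fatty acids to mitochondria, was at 11.71, 11.90 and 11.97 on the fasted arrays and 10.59, 10.61 and 10.48 on the refed ones. The arrays within a group lay close together, and the difference was -1.30 ± 0.11 (adjusted p 3.11e-05). Slc25a20, the carnitine carrier of the next step, fell by 0.60 ± 0.08 (adjusted p 7.60e-04), and Plin5, a lipid droplet protein, fell by 0.74 ± 0.12 (adjusted p 0.00258). The lipid droplet protein Cidec fell by 1.64 ± 0.35 (adjusted p 0.0129, and 0.0595 without fasted replicate 1). The acyl-CoA thioesterase Acot1 (-0.81 ± 0.21, adjusted p at most 0.137) and the peroxisomal protein Pex11a (-0.56 ± 0.14, at most 0.154) each passed with all arrays and missed without any 1 of 7 arrays. For Acot1 these were each control refed replicate, control fasted replicates 2 and 3, and replicate 2 of LG2KO refed and of LG2KO fasted. For Pex11a they were control refed replicates 2 and 3, control fasted replicates 1 and 2, and each LG2KO refed replicate. Ppara, the receptor that drives this program, did not pass (-0.14 ± 0.28, adjusted p 0.907), nor did the omega-hydroxylase Cyp4a14 (-0.03 ± 0.09, adjusted p 0.929) or Plin2 (-0.20 ± 0.11, adjusted p 0.424). Pnpla2, the adipose triglyceride lipase that also acts in liver, was at 10.48, 10.28 and 10.18 fasted and 8.80, 9.05 and 8.98 refed (-1.37 ± 0.10, adjusted p 7.56e-06). Acot3, a peroxisomal thioesterase, went from 9.34, 10.92 and 10.73 to 7.79, 7.66 and 7.75 (-2.60 ± 0.42, adjusted p 0.00248), with no overlap and with fasted replicate 1 below the other fasted arrays.

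Secreted regulators of fat use changed in opposite directions. Of 19 measured hormones and hepatokines 3 were higher and 1 lower (median -0.02), with the same counts without refed replicate 1. Angptl8, a feeding-induced partner in the control of lipoprotein lipase, was at 9.13, 8.67 and 7.62 fasted and 11.56, 11.63 and 11.14 refed (2.97 ± 0.33, 7.83-fold, adjusted p 1.78e-04). Angptl4, a fasting-induced inhibitor of the same lipase, was at 11.48, 11.14 and 11.53 fasted and 9.63, 10.12 and 10.37 refed (-1.34 ± 0.20, adjusted p 0.00139). Its other probe set differed by -0.34. The groups did not overlap for either gene. Igfals, the acid-labile subunit that carries insulin-like growth factors, rose by 0.57 ± 0.09 (adjusted p 0.00188), and the activin gene Inhba by 0.62 ± 0.12 (adjusted p 0.00739). Fgf21, a fasting hormone, did not pass (-0.56 ± 0.36, adjusted p 0.529), and Igf1 differed by -0.08 ± 0.07 (adjusted p 0.671).

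Part of the genes of amino acid breakdown fell. Of 19 measured genes of amino acid catabolism and the urea cycle 8 were lower and 0 higher, with a median of -0.43, and without refed replicate 1 the count was 11 with a median of -0.57. Got1, the cytosolic aspartate aminotransferase, was at 13.57, 13.11 and 13.35 on the fasted arrays and 11.49, 11.22 and 11.06 on the refed ones (-2.09 ± 0.15, adjusted p 6.79e-06). Slc7a2, a transporter of arginine and lysine, was at 10.87, 10.58 and 11.09 fasted and 9.51, 8.90 and 9.34 refed (-1.60 ± 0.20, adjusted p 3.48e-04). Prodh, proline dehydrogenase, was at 12.27, 12.07 and 12.19 fasted and 11.09, 11.44 and 11.09 refed (-0.97 ± 0.09, adjusted p 5.42e-05). None of these 3 pairs of groups overlapped. The alanine aminotransferases Gpt2 and Gpt fell by 0.87 ± 0.10 and 0.39 ± 0.05 (adjusted p 2.53e-04 and 9.63e-04), and argininosuccinate lyase, Asl, fell by 0.51 ± 0.07 (adjusted p 9.83e-04). Tdo2, which opens the ring of tryptophan, was at 12.54, 12.34 and 12.66 fasted and 12.70, 11.02 and 11.02 refed, so that refed replicate 1 was above all fasted arrays. Its difference was -0.93 ± 0.43 with all arrays (adjusted p 0.298) and -1.49 without that array (adjusted p 0.0164). Arginase, Arg1 (-0.34 ± 0.09, adjusted p 0.0504), and Cps1, the entry of the urea cycle (-0.25 ± 0.10, adjusted p 0.224), likewise passed without refed replicate 1 (adjusted p 0.00919 and 0.0274), Arg1 also without LG2KO refed replicate 3. The tyrosine aminotransferase Tat did not pass in either case (-0.36 ± 0.11, adjusted p 0.0936, and 0.0812 without refed replicate 1), and passed only without fasted replicate 2. Slc43a1, a transporter of branched-chain and aromatic amino acids that is on no list, was at 8.62, 8.42 and 8.29 fasted and 6.51, 7.08 and 6.76 refed (-1.66 ± 0.15, adjusted p 3.90e-05).

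**Figure D3:**
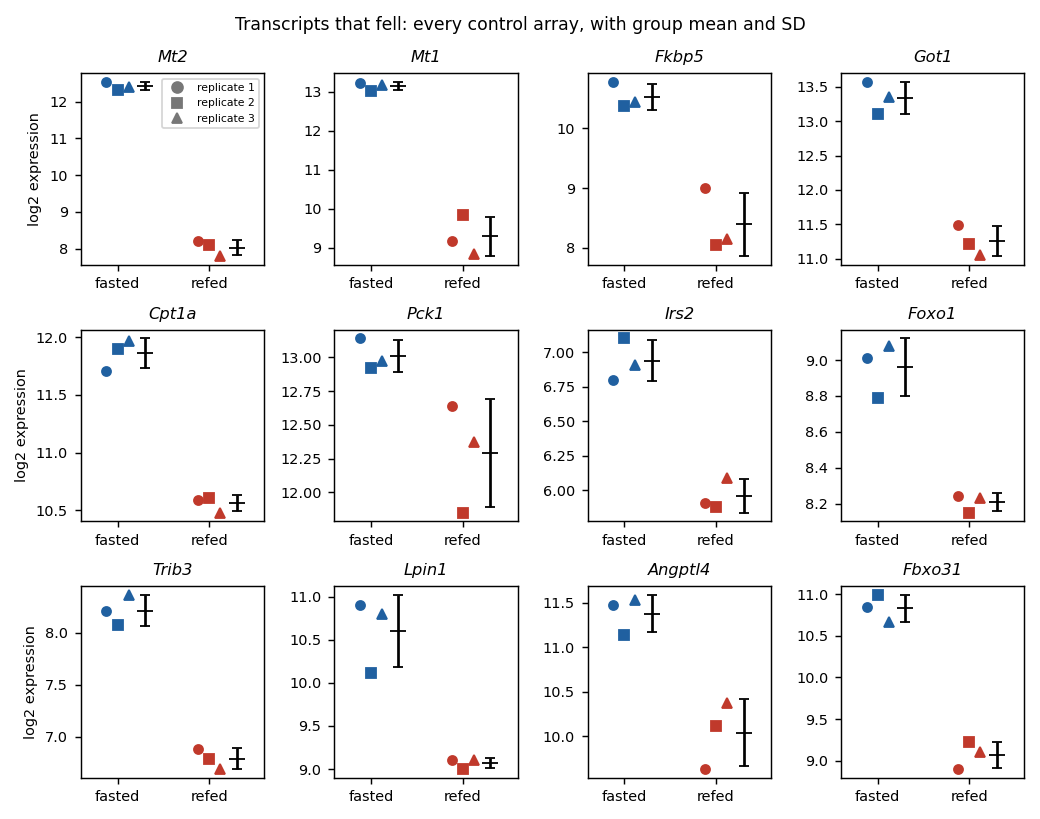
Log2 expression of 12 transcripts that fell, on each of the 3 fasted (blue) and 3 refed (red) control arrays, with the group mean and SD beside the points. Marker shape gives the replicate number and each panel has its own axis, and in every panel all refed arrays lie below all fasted arrays. The span is largest for Mt2, from 12.32 or more to 8.2 or less; the refed arrays of Pck1 range from 11.85 to 12.64.

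Many folding factors of the ER rose, and none fell past the threshold. All 28 members of the list were measured, 16 were higher and 0 lower, and the median was 0.68. Without refed replicate 1 the count was 14 with the same median, and leaving out any other array gave 13 to 16. Sdf2l1, an ER protein of the chaperone complexes, was at 8.99, 8.59 and 8.75 fasted and 11.25, 11.28 and 11.35 refed (2.51 ± 0.14, adjusted p 1.77e-06). Creld2, a stress-induced ER protein with disulfide isomerase activity, was at 9.16, 9.28 and 8.91 fasted and 11.60, 11.66 and 11.58 refed (2.50 ± 0.19, adjusted p 9.16e-06). Refed replicate 1 lay with the other refed arrays for both. Hyou1, a large ER chaperone, went from 10, 10.01 and 9.57 to 11.54, 11.71 and 11.67 (1.78 ± 0.12, adjusted p 4.89e-06). Manf, a secreted ER protein, rose by 1.64 ± 0.11 (adjusted p 4.69e-06), the disulfide isomerase Pdia4 by 1.08 ± 0.09 (adjusted p 1.94e-05) and the translocon subunit Sec61b by 0.75 ± 0.06 (adjusted p 1.73e-05).

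The main ER chaperones depended on single arrays. Hspa5, or BiP, was at 11.20, 11.39 and 11.23 fasted and 12.71, 12.08 and 12.16 refed, with refed replicate 1 the highest array (1.04 ± 0.24, adjusted p 0.0221). Without refed replicate 1 the rise was 0.85 (adjusted p 0.0628), and without 1 of the fasted arrays in turn the adjusted p was at most 0.0827. Another probe set of Hspa5 differed by 0.01. Hsp90b1, the ER form of Hsp90, was higher by 1.40 ± 0.35 (adjusted p 0.0316) and by 1.11 without refed replicate 1 (adjusted p 0.0868), rising to as much as 0.105 without refed replicate 2 or any fasted array. Xbp1, a transcription factor of the unfolded protein response, was at 12.52, 12.55 and 12.52 fasted and 12.72, 12.58 and 12.67 refed (0.13 ± 0.06, adjusted p 0.31), and its target Dnajb9 differed by 0.16 ± 0.33 (adjusted p 0.908). The array value of Xbp1 is for the whole transcript and does not show its splicing.

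Promoters of some folding genes shared a sequence element. The ER stress response element, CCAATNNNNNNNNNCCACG, at which NF-Y and the ER stress factors ATF6 and XBP1 bind, was found in 10 of 24 windows of the folding list (41.7%). It was in 9 of 641 windows of all higher genes (1.40%), in 0 of 630 windows of lower genes and in 20 of 18110 windows overall (0.11%). The folding list is made of known ER stress genes, for which this element was described, so the share is a description of the list and not a separate line of evidence. The windows of 4 members that rose are shown with the element in capitals, on the gene's own strand.
Creld2, chr15:88819396-88819695, + strand: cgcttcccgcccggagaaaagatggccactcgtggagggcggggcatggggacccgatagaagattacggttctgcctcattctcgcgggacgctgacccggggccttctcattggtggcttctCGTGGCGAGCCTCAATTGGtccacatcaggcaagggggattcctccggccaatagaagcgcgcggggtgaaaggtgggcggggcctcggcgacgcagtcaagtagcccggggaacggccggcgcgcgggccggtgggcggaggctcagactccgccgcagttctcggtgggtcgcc
Calr, chr8:84846882-84847181, - strand: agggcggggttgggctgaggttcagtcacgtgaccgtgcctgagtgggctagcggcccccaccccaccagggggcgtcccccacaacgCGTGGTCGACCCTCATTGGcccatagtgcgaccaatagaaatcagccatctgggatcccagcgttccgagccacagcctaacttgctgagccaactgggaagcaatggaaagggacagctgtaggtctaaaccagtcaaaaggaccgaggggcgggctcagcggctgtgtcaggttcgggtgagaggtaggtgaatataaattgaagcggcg
Pdia6, chr12:17266339-17266638, + strand: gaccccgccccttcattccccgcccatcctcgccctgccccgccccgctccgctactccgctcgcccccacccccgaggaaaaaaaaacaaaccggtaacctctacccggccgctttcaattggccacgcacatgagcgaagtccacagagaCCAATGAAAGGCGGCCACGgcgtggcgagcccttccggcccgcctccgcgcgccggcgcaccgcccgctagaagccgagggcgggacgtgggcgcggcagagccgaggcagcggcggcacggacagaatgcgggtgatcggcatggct
Derl3, chr10:75893148-75893447, + strand: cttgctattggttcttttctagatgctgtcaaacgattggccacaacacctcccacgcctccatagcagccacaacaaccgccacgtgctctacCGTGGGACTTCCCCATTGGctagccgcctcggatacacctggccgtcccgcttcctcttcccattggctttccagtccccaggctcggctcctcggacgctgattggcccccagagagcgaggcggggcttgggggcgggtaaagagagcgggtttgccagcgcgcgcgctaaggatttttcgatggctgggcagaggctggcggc
The element began at -126 in Creld2, -162 in Calr, -98 in Pdia6 and -156 in Derl3. It read in the direction of the gene in Pdia6 and in the opposite direction in the other windows. The 4 genes rose by 2.50 ± 0.19 (Creld2), 0.68 ± 0.07 (Calr, an ER lectin chaperone), 1.15 ± 0.13 (Pdia6, a disulfide isomerase) and 1.54 ± 0.29 (Derl3, of ER-associated degradation). Of the 10 folding genes with the element 7 were higher, with a median of 0.87, and of the 14 with a window and no such element 7 were higher, with a median of 0.38. Outside the list, the element was in windows of 10 genes, of which 2 were higher. These were Acnat2 (1.15 ± 0.19) and Alg12 (0.79 ± 0.15), and the window of Alg12, chr15:88819269-88819568 on the - strand, overlaps that of Creld2. The match of Alg12 is the same stretch of bases as that of Creld2, so this site was counted for both genes.

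Many cytosolic chaperones rose as well. Of 17 measured heat shock genes 9 were higher and 0 lower, with a median of 0.87, and without refed replicate 1 the count was 10 with a median of 0.80. Fkbp4, a co-chaperone of Hsp90, was at 9.65, 9.71 and 9.50 fasted and 10.68, 11.02 and 11.08 refed (1.30 ± 0.11, adjusted p 1.73e-05). Stip1, which links Hsp70 to Hsp90, was at 8.31, 8.34 and 8.21 fasted and 9.49, 9.56 and 9.58 refed (1.26 ± 0.12, adjusted p 6.64e-05). Neither gene's groups overlapped. The small heat shock protein Hspb1 rose by 1.69 ± 0.26 (adjusted p 0.00176), the co-chaperone Dnajb1 by 0.87 ± 0.16 (adjusted p 0.00477) and the mitochondrial Hspe1 by 0.46 ± 0.08 (adjusted p 0.00353). Hsp90aa1 was higher by 1.72 ± 0.40 (adjusted p 0.023), rising to as much as 0.0975 without refed replicate 1 or 2 or fasted replicate 1 or 3. Other probe sets differed by as little as 0.07 for Hsp90aa1 and 0.19 for Fkbp4. The stress-induced Hsp70 genes Hspa1a (0.89 ± 0.36, adjusted p 0.206) and Hspa1b (1.35 ± 0.42, adjusted p 0.0874) passed only without refed replicate 1 or, for Hspa1b, also without fasted replicate 1. These 2 genes are near-identical copies, so their probe sets may read each other.

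The integrated stress response, which the kinases of eIF2alpha start, was mixed, with 3 of 20 measured members higher and 3 lower (median 0.03), and 4 and 3 without refed replicate 1. Ddit3, or CHOP, was at 7.17, 7.10 and 7.04 fasted and 7.83, 7.78 and 8.12 refed (0.81 ± 0.12, adjusted p 0.00139). Chac1, which degrades glutathione, was at 7.70, 7.51 and 7.80 fasted and 5.91, 6.02 and 6.17 refed (-1.64 ± 0.30, adjusted p 0.00496). The groups of both genes were separate, in opposite directions. Eif4ebp1, a brake on cap-dependent translation, fell by 0.78 ± 0.14 (adjusted p 0.0042; another probe set differed by 0.02), and the transcription factor Cebpb fell by 0.58 ± 0.11 (adjusted p 0.00608). Atf4 was higher by 0.35 ± 0.09 (adjusted p 0.0298), rising to as much as 0.128 without refed replicate 2 or 3 or fasted replicate 1 or 3, and without refed replicate 2 or refed replicate 3 only 1 member of the list was still higher. Another probe set of Atf4 differed by 0.02. Asns, asparagine synthetase, did not pass (-0.24 ± 0.46, adjusted p 0.901).

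A minority of ribosome biogenesis genes rose. Of 30 members 7 were higher and 0 lower (median 0.22), and 8 were higher without refed replicate 1. Without refed replicate 2, refed replicate 3 or fasted replicate 2 the count was 1. The gene that remained was Odc1, ornithine decarboxylase of polyamine synthesis, at 10.09, 10.12 and 10.20 fasted and 10.82, 10.81 and 11.04 refed (0.75 ± 0.12, adjusted p 0.00244). The nucleolar genes Nop56 (0.66 ± 0.15), Rrp12 (0.74 ± 0.17), Bop1 (0.52 ± 0.11) and Mybbp1a (0.39 ± 0.09) and spermidine synthase Srm (0.59 ± 0.14) passed with all arrays at adjusted p of at most 0.0213. Another probe set of Bop1 differed by -0.20, and Bop1 missed without refed replicate 2 or 3 or fasted replicate 2 or 3. Myc, which drives this program in growth, was at 7.32, 7.97 and 6.88 fasted and 6.68, 6.38 and 6.46 refed, a difference of -0.88 ± 0.26 that did not pass (adjusted p 0.0648) except without control or LG2KO fasted replicate 3. The E-box CACGTG, which Myc and the clock factors bind, was in 11 of 28 windows of this list (39.3%) and in 8.72% of all windows. It was in 10.6% of windows of higher genes, 12.2% of windows of lower genes and 28.6% of windows of the clock list. Of the higher genes named in this paragraph, only Mybbp1a had it in a window, and several of the windows were of Eif5a. Its part in the rise was not tested.

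Some protein breakdown and autophagy genes fell, with 7 of 22 members lower and 1 higher (median -0.36). Without refed replicate 1 the counts were 8 and 2, and the number lower was 4 without refed replicate 2, fasted replicate 1 or fasted replicate 3. Fbxo31, a substrate receptor of a ubiquitin ligase, was at 10.85, 10.99 and 10.66 fasted and 8.90, 9.22 and 9.11 refed (-1.76 ± 0.12, adjusted p 5.75e-06). Usp2, a deubiquitinase, was at 10.46, 10.21 and 10.57 fasted and 8.95, 9.59 and 9.41 refed (-1.10 ± 0.14, adjusted p 4.97e-04). The groups did not overlap for either. The autophagosome proteins Gabarapl1 and Map1lc3b fell by 0.69 ± 0.08 and 0.65 ± 0.08 (adjusted p 2.97e-04 and 3.33e-04). The mitophagy receptor Bnip3 was lower (-0.74 ± 0.17, adjusted p 0.0202), rising to as much as 0.0918 without refed replicate 2 or 3 or fasted replicate 1 or 3. The higher member was Psmc4, a subunit of the proteasome (0.49 ± 0.08, adjusted p 0.00302).

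A list of targets of glucocorticoids, the adrenal steroids that rise in fasting, held the largest fall of all genes tested, that of Mt2. Whether glucocorticoids acted on these genes was not tested. Of 15 members 8 were lower and 0 higher, with a median of -0.94, 6 were lower without refed replicate 1, and 4 without fasted replicate 1 or 3. Mt2, a metal-binding metallothionein, was at 12.54, 12.32 and 12.39 on the fasted arrays and 8.20, 8.09 and 7.80 on the refed ones. The difference was -4.38 ± 0.32, or 20.9-fold lower (adjusted p 7.59e-06), and Mt1 went from 13.23, 13.03 and 13.17 to 9.17, 9.84 and 8.85 (-3.86 ± 0.28, adjusted p 7.59e-06). Fkbp5, a co-chaperone that restrains the glucocorticoid receptor, was at 10.78, 10.37 and 10.44 fasted and 9.0, 8.04 and 8.14 refed (-2.14 ± 0.22, adjusted p 7.98e-05), although another of its probe sets differed by 0.12. Gadd45g, a stress-induced growth regulator, was at 10.50, 9.56 and 10.35 fasted and 8.20, 7.87 and 7.92 refed (-2.14 ± 0.30, adjusted p 9.40e-04). In these 4 genes every refed array was below every fasted array. The cell cycle inhibitor Cdkn1a (-1.09 ± 0.27, adjusted p 0.0327) and the transcription factor Zbtb16 (-0.94 ± 0.24, adjusted p 0.0355) passed with all arrays but not without refed replicate 1 (adjusted p 0.0765 and 0.0542). Cdkn1a also missed without refed replicate 3, fasted replicate 1 or 3, or LG2KO refed replicate 2, and Zbtb16 without any 1 of the 6 control arrays.

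Of 18 measured clock genes 1 was higher and 3 lower (median -0.13), and 1 and 4 without refed replicate 1. Bhlhe40, a repressor within the clock that also responds to feeding, was at 9.57, 9.62 and 9.66 fasted and 10.71, 10.79 and 10.39 refed (1.01 ± 0.13, adjusted p 3.87e-04). Ciart, a clock repressor, was at 9.07, 8.13 and 8.97 fasted and 6.86, 7.77 and 7.47 refed (-1.36 ± 0.24, adjusted p 0.00476). Neither pair of groups overlapped. Tef, an output factor, fell by 0.71 ± 0.08 (adjusted p 1.40e-04), but its probe sets ranged from -0.71 to 0.56. Per1 was lower (-0.78 ± 0.17, adjusted p 0.0178), rising to as much as 0.0815 without refed replicate 2 or fasted replicate 1 or 3. The core genes Arntl (0.20 ± 0.16, adjusted p 0.641), Nr1d1 (-0.05 ± 0.19, adjusted p 0.954) and Dbp (-0.37 ± 0.14, adjusted p 0.188) did not pass. Hours of tissue collection are not given in the labels used here.

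In bile acid and sterol disposal, 5 of 18 members were lower and 2 higher (median -0.06). Without refed replicate 1 the counts were 5 and 4 with a median of -0.24, and without any 1 of the fasted arrays no member was higher. Abcg5 and Abcg8, partner subunits of the transporter that secretes sterols into bile, fell by 1.11 ± 0.14 and 1.08 ± 0.09 (adjusted p 3.87e-04 and 2.15e-05). Abcg8 was at 9.55, 9.65 and 9.73 fasted and 8.52, 8.61 and 8.56 refed. Cyp8b1, which makes cholic acid, was at 12.88, 13.01 and 12.85 fasted and 11.53, 12.17 and 12.12 refed (-0.98 ± 0.15, adjusted p 0.00218), and neither gene's groups overlapped. The bile acid ligase Slc27a5 fell by 0.27 ± 0.05 (adjusted p 0.00329). Cyp7a1, the rate-limiting enzyme of bile acid synthesis, was at 8.98, 9.47 and 9.59 fasted and 9.76, 8.13 and 7.67 refed, with refed replicate 1 the highest of the 6 arrays (-0.83 ± 0.55, adjusted p 0.547). The bile salt pump Abcb11 was higher by 0.88 ± 0.20 (adjusted p 0.0199), rising to as much as 0.0891 without any 1 of the fasted arrays.

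Genes of growth hormone action numbered 3 higher and 0 lower of 15 measured (median -0.03), and 4 and 1 without refed replicate 1. Hsd3b5, a male-biased steroid enzyme of liver, was at 8.53, 9.62 and 9.20 fasted and 12.15, 11.84 and 11.66 refed (2.77 ± 0.34, adjusted p 3.75e-04). The groups did not overlap. Socs2, a feedback inhibitor of growth hormone signalling, was at 8.0, 9.26 and 8.99 fasted and 8.98, 6.23 and 6.44 refed. Refed replicate 1 lay within the fasted range, and the difference was -1.53 ± 0.71 (adjusted p 0.299), or -2.41 without it (adjusted p 0.0245). Bcl6, a repressor in male liver, moved in the other direction (1.20 ± 0.42, adjusted p 0.136, and 1.74, adjusted p 0.00694, without refed replicate 1). The hepatic factor Onecut1 was higher by 1.30 ± 0.28 (adjusted p 0.0136, and 0.0679 without fasted replicate 1).

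In xenobiotic metabolism 2 of 20 measured genes were higher and 3 lower (median -0.17), and 1 and 5 without refed replicate 1. Cyp26a1, which breaks down retinoic acid, was at 6.70, 6.99 and 6.57 fasted and 8.99, 9.32 and 8.84 refed (2.30 ± 0.23, adjusted p 7.98e-05), without overlap. The nuclear receptor Nr1i3, or CAR, fell by 0.55 ± 0.09 (adjusted p 0.00232). Its target Cyp2b10 was lower (-1.49 ± 0.32, adjusted p 0.0142), rising to as much as 0.0665 without refed replicate 2 or fasted replicate 1 or 3. Without refed replicate 2 or fasted replicate 3 the number of lower members was 1.

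Acute phase and complement genes were lower in 3 of 23 measured members and higher in 0 (median -0.18), and 6 were lower without refed replicate 1. Lbp, which binds bacterial lipopolysaccharide, was at 12.02, 11.88 and 11.80 fasted and 11.34, 11.30 and 11.25 refed (-0.60 ± 0.08, adjusted p 7.09e-04). The interleukin 6 receptor Il6ra fell by 0.88 ± 0.15 (adjusted p 0.00289) and the serpin Serpina3n fell by 0.56 ± 0.11 (adjusted p 0.00925). The 3 additional members were the fibrinogen chains Fga, Fgb and Fgg, which passed only without refed replicate 1 (-0.30, -0.39 and -0.45). On refed replicate 1 they were at 12.94, 13.65 and 13.57, at or above most fasted arrays.

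Of 21 measured cell cycle genes 3 were higher and 2 lower (median 0.06), and 2 and 1 without refed replicate 1. Ccnd1, the cyclin of entry into the cycle, was at 8.01, 8.29 and 8.44 fasted and 8.72, 9.22 and 9.50 refed (0.90 ± 0.22, adjusted p 0.0263), rising to as much as 0.118 without refed replicate 2 or 3 or fasted replicate 1 or 2. Btg2, an antiproliferative gene, was at 9.17, 8.91 and 8.93 fasted and 7.91, 8.09 and 8.33 refed (-0.89 ± 0.16, adjusted p 0.0055) and passed without each array. The replication helicase subunit Mcm5 was at 6.09, 6.0 and 6.30 fasted and 6.35, 8.17 and 7.90 refed. Refed replicates 2 and 3 stood above replicate 1, and the difference of 1.34 ± 0.38 (adjusted p 0.0544) became 1.90 without replicate 1 (adjusted p 4.24e-04). No member of the list was higher without refed replicate 3 or without fasted replicate 1.

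Further genes stood among the largest changes without being on a list. Tubb2a, a beta tubulin, was at 9.20, 9.02 and 8.97 fasted and 11.35, 11.75 and 11.99 refed (2.63 ± 0.15, adjusted p 1.77e-06). Among the falls, Upp2, a uridine phosphorylase, went from 10.66, 10.62 and 10.93 to 9.34, 7.97 and 8.22 (-2.23 ± 0.36, adjusted p 0.0025). Mfsd2a, a lysophospholipid transporter, went from 10.78, 10.61 and 11 to 8.84, 9.13 and 8.75 (-1.89 ± 0.18, adjusted p 5.42e-05). In each case the groups were separate. The cold-inducible RNA-binding protein Cirbp fell by 1.76 ± 0.19 (adjusted p 1.27e-04) and the Golgi GTPase Rab30 fell by 1.79 ± 0.24 (adjusted p 6.28e-04), with another Rab30 probe set at -0.03. Flvcr2 (-1.61 ± 0.22), Zbed5 (-1.70 ± 0.26) and the antisense RNA Zbtb11os1 (-1.58 ± 0.11) also fell and passed without each array. Gpcpd1, a glycerophosphocholine phosphodiesterase (-2.46 ± 0.57, at most 0.091), Moxd1 (-2.57 ± 0.63, at most 0.103) and the pseudogene Serpina4-ps1 (2.21 ± 0.51, at most 0.0913) passed with all arrays and missed without some. These arrays were refed replicates 2 and 3 with fasted replicates 2 and 3 for Gpcpd1, refed replicates 2 and 3 with fasted replicates 1 and 3 for Moxd1, and refed replicate 1 with fasted replicates 1 and 3 for Serpina4-ps1.

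Markers of cell types were compared over the same arrays. Beside their counts, 3.29% of all genes were higher and 3.17% lower. The defining hepatocyte marker Alb lay between 14.1 and 14.33 on the 6 arrays, and 2 of 12 measured hepatocyte markers were lower, Hnf4a (-0.31 ± 0.08) and Ttc36 (-0.20 ± 0.05). No marker of 14 for macrophages, 12 for stellate cells and fibroblasts, 11 for lymphocytes and neutrophils or 3 for erythroid cells passed. Of 14 endothelial markers 1 was lower (Stab2, -0.42 ± 0.09), and of 7 cholangiocyte markers 1 was higher (Pkhd1, 1.36 ± 0.30). Of 6 adipose markers 1 was lower, the lipase Pnpla2 described above, and of 5 sex chromosome transcripts 0 passed. The call of Ttc36 was lost without any 1 of the fasted arrays, that of Stab2 without refed replicate 3 or fasted replicate 2 or 3, and that of Pkhd1 without refed replicate 2 or fasted replicate 1 or 2. Hnf4a missed without any 1 of 8 arrays, among them each fasted control array and refed replicates 2 and 3. Exocrine pancreas markers had a mean level of 7.41 on fasted replicate 3 and of 5.10 to 5.27 on the other 5 arrays, summed over 14 genes 103.8 against 71.4 to 73.7. The chymotrypsinogen Ctrb1 read 9.18 there and at most 5.07 elsewhere. None of the 14 passed, and their part in the refeeding response was not tested. Without fasted replicate 3 there were 433 higher and 362 lower genes, and without it and refed replicate 1 there were 674 (3.70%) and 403 (2.22%).

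**Figure D4:**
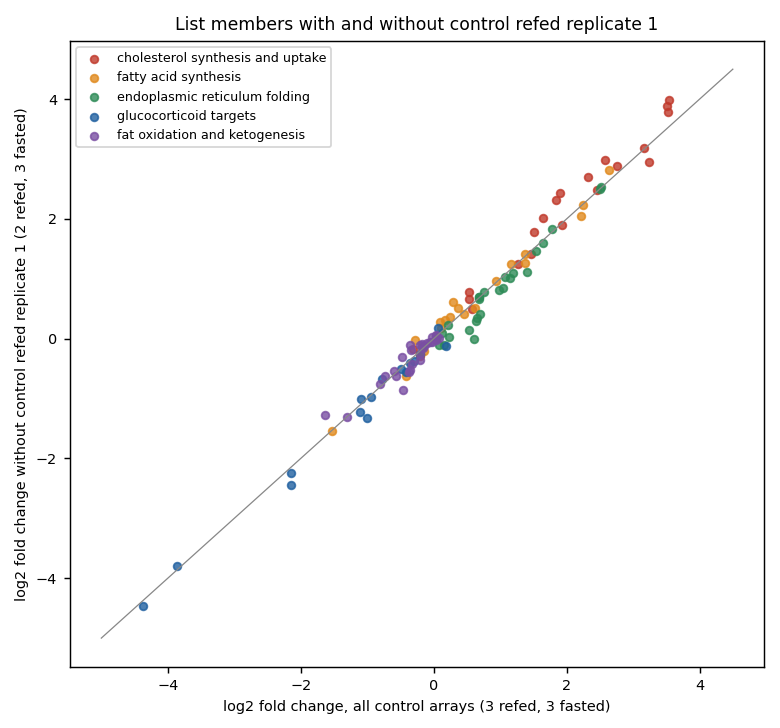
Log2 fold change, control refed minus fasted, of members of 5 lists with all control arrays (x axis, 3 refed and 3 fasted) and without control refed replicate 1 (y axis, 2 refed and 3 fasted). Each point is a gene and the line marks equal values. Most cholesterol genes lie above the line, such as Mvd (3.54 and 3.98), while several ER folding genes lie below it, such as Hsp90b1 (1.40 and 1.11).

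Refed replicate 1 did not move all groups of genes alike. Over the 504 list members, 146 passed with all arrays and 161 without it, with 10 passing only with it and 25 only without it. Members that passed without it and not with all arrays included Igfbp1, G6pc, Tdo2, Arg1, Cps1, Scd1, Socs2, Bcl6, Mcm5 and the fibrinogens, described above. The sigma-2 receptor gene Tmem97 (0.53 ± 0.18 with it and 0.78 without it, adjusted p 9.00e-04) and the sulfotransferase Sult1d1 (-2.10 ± 0.66 and -2.82, adjusted p 0.0135) behaved in the same way. For other genes, such as Fasn and Mt2, refed replicate 1 lay on the refed side. It was at 11.28 for Fasn and at 8.20 for Mt2, against 9.09 or less and 12.32 or more on the fasted arrays.

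The response of control liver was set beside that of LG2KO liver, which shares no array with it. Every LG2KO array carries the tamoxifen label and no control array does, so loss of Glut2 and tamoxifen cannot be told apart. The targeted gene Slc2a2 had a mean level of 3.90 ± 0.30 (SD, n = 3) in LG2KO fasted liver and 3.74 ± 0.09 in LG2KO refed liver, against 10.64 ± 0.56 and 10.96 ± 0.32 in control liver. In LG2KO liver 847 genes were higher (4.66%) and 436 lower (2.40%), together 7.05% of all genes, and 676 genes passed in the same direction in both genotypes. That is 57.5% of the control calls and 52.7% of the LG2KO calls. The difference between the responses, tested as an interaction, passed for 1 gene of 18194 (0.0055%), and 861 genes had an unadjusted p below 0.05. That gene was Pklr, which rose by 0.92 ± 0.12 in control liver and fell by 0.82 in LG2KO liver (interaction 1.75, adjusted p 0.0024). It was also the only gene called in opposite directions.

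For the lipogenic genes Elovl6, Thrsp and Acly the refed minus fasted difference was smaller in LG2KO liver, where the fasted level was higher than in control liver, while the interaction did not pass in the fit to all genes with equal array weights. Elovl6 differed by 2.21 ± 0.27 in control liver and 0.28 in LG2KO liver (interaction adjusted p 0.265), Thrsp by 1.37 ± 0.22 and -0.04 (0.407), and Acly by 1.16 ± 0.13 and -0.07 (0.13). The mean fasted levels in control and LG2KO liver were 6.37 and 8.35 for Elovl6, 11.58 and 13.42 for Thrsp, and 9.70 and 10.84 for Acly, and the mean refed levels were 8.58 and 8.63, 12.95 and 13.38, and 10.86 and 10.77. The interaction of Acly passed with the replicate block, when only the most highly expressed 25% of genes were tested, and when arrays were weighted. Aacs and Mid1ip1 passed in those same settings, and Elovl6, Fasn and Tkfc when arrays were weighted. Mt2 differed by -4.38 ± 0.32 in control liver and -2.62 in LG2KO liver (0.574), and Sqle by 3.53 ± 0.38 and 3.43 (0.997). Creld2 rose by 2.50 ± 0.19 and 3.09 (0.99). With 3 pools per group, an interaction that missed the threshold does not show that the genotypes responded alike.

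**Figure D5:**
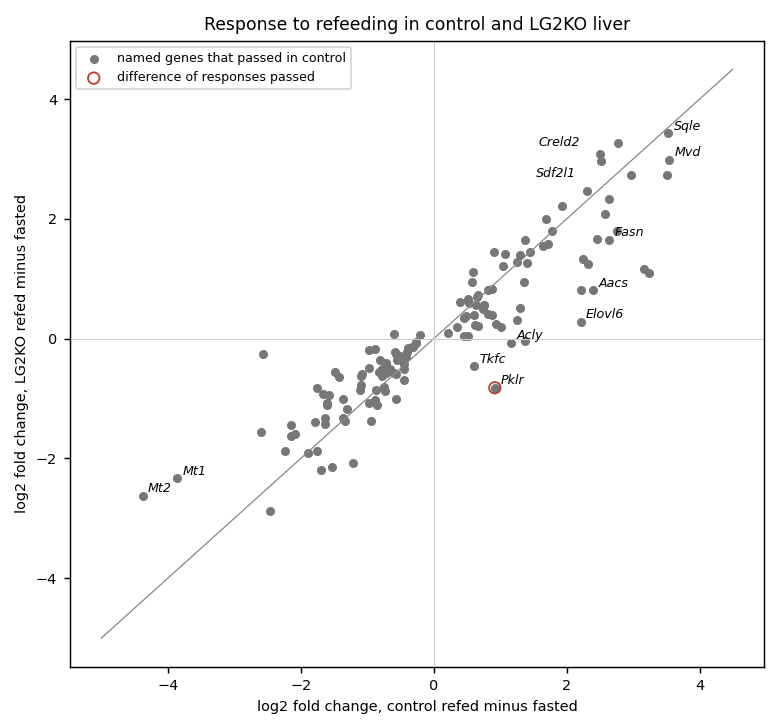
Log2 fold change, refed minus fasted, of named genes that passed in control liver (x axis) against the same gene's value in LG2KO liver (y axis), with 3 pools per group and a line of equal values. The circled gene, Pklr (0.92 and -0.82), is the gene whose responses differed at an adjusted p below 0.05, and most other points share their sign, such as Sqle (3.53 and 3.43).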

How the data were processed

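Liver RNA of 12 pools, 3 per group, was measured on an Affymetrix mouse array. The deposited log2 values were made with RMA, per the submitters' processing notes, a method that subtracts background, equalises array distributions and combines probes by set. Sorted values here still differed between arrays by up to 0.296. The program and genome build are not given in these sources. Groups came from titles, and LG2KO fasted arrays have a source label that says fasted and refed, against their titles and diet labels.

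Of 45101 probe sets, 34958 had 1 gene symbol in the platform annotation, 932 had several and were left out, and 9211 were not listed and are unnamed here. RefSeq's table (GRCm38.p6) changed 0 symbols. Each symbol was represented by its probe set with the highest mean over the 12 arrays, giving 18194 genes, 9012 of them with several probe sets. Of the genes named by rule that passed, 7 had probe sets of both signs, a count that leaves out Tubb4b, named after its values were seen. No dim genes were left out.

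The test was two-sided limma (3.58.1, R 4.3.3), a fit of 1 mean per group to all 12 arrays whose variances eBayes moderated along an intensity trend, with Benjamini-Hochberg adjustment across the 18194 genes. Lists are described by counts and medians, with no test of a list. On data simulated for control refed against fasted (18194 genes, 200 changed), the fit found 44.8% of 1.5-fold, 80.6% of 2-fold and 98.5% of 4-fold changes, with 15 false calls. The simulated noise was normal, independent and equal on all arrays of a gene. No simulated array stood apart, and fewer genes were changed than the 1176 that passed, so these shares need not hold for the real arrays. The number of arrays limits the precision.

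The members, the 22 gene lists and the 10 marker lists were chosen with earlier results of these data known. Of 572 list entries 514 were measured. Named were the 20 largest rises and 20 largest falls that passed without overlap of groups (leaving out clone-like symbols), up to 6 members per list with the smallest adjusted p, a set of key genes whether or not they passed, up to 10 genes with the largest interaction that passed, and list members whose call changed without control refed replicate 1. Calr, Pdia6, Derl3, Acnat2 and Alg12 were named after their values were seen, for their promoters. Promoter windows are RefSeq's (GRCm38.p6). Alternatives changed the variance model, array weights, groups in the fit, dim genes, probe set, normalization, replicate block and arrays. Figures used matplotlib 3.10.9 (Python 3.11.15).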

Additional observations from a re-analysis of the deposited data

Results flagged for a closer look

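Pklr, liver pyruvate kinase, had responses that differed between control and LG2KO liver in a direct test. Loss of Glut2 and the tamoxifen label of the LG2KO mice cannot be told apart here. The interaction of genotype and feeding was 1.75 on the log2 scale (limma adjusted p 0.0024), with 0.92 ± 0.12 in control liver and -0.82 in LG2KO liver. On the control arrays every refed value was above every fasted value, and the interaction passed without each of the 12 arrays in turn, at 1.68 to 1.85 with adjusted p of at most 0.0171.

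A further 2 named genes were flagged for differences of opposite sign in the genotypes. The fasted and refed pools are not paired, so a single array has no direction. The sign also differed for other named genes, such as Acly (1.16 and -0.07). For Tkfc the interaction was 1.07 (limma adjusted p 0.174), with 0.61 ± 0.13 in control liver and -0.46 in LG2KO liver. For Ttc36 it was -0.26 (adjusted p 0.609), with -0.20 ± 0.05 and 0.06. Neither difference passed the test with all arrays weighted equally, and that of Tkfc passed with array weights.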

How the results depend on the processing

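Of 1176 genes that passed (599 higher, 577 lower), the total became 2454 with array weights (1358 and 1096), 695 with the 2 control groups alone in the fit (365 and 330) and 2202 without the pair of arrays that stand apart, control refed replicate 1 and LG2KO fasted replicate 3 (1152 and 1050). Leaving out 1 array at a time gave totals of 706 to 1467, with 336 to 862 higher and 346 to 651 lower. The interaction passed for 1 to 2 genes with 1 array left out, for 2 with robust estimation, 20 with array weights and 6 in the top 25% of genes by level. Pklr was among them each time. The total stayed within 1.5 times under the other alternatives. Some of these tested fewer genes, so a like total was a larger share. They gave 1474 of the 9097 genes above the median level and 1179 of the 4549 in the top 25%. Of the 136 named genes that passed, Tef reversed, at 0.56 with its most variable probe set, 93 passed without each array, and 112 passed with the control groups alone. The causes were not tested.

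With the replicate number as a block (replicate block), 592 genes were higher and 573 lower, 1074 of the 1176 calls were kept, 4 named genes missed the threshold, and the interaction passed for 6 genes. The labels do not tie equal numbers to shared animals or days, and deviations of control refed and fasted arrays with the same number correlated at -0.39, -0.04 and -0.38, so the numbers were not taken as pairs.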

Other observations

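Tubulin genes, which encode the subunits of microtubules, rose in part after refeeding. They were grouped by name after their values were seen. Of 13 measured 7 were higher and 0 lower, with a median of 0.76 (0.89 without refed replicate 1, with the same count), beside 3.29% higher among all genes. Tubb4b was at 9.89, 10.02 and 9.75 on the fasted arrays and 11.51, 11.85 and 11.86 on the refed ones (1.85 ± 0.10, limma adjusted p 1.25e-06), and Tubb5 at 9.55, 9.83 and 9.45 and 10.84, 11.20 and 11.23 (1.48 ± 0.12, adjusted p 2.00e-05). The alpha tubulin Tuba4a rose by 0.98 ± 0.07 (adjusted p 6.56e-06). Probe sets ranged from -0.23 to 1.85 for Tubb4b and from 0.16 to 1.34 for Tuba4a. In LG2KO liver 7 of the 13 were higher, with a median of 0.96. Tubulins are close in sequence, so a probe set may read more than 1 of them.

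Host genes of small nucleolar RNAs, spliced RNAs whose introns carry guides for ribosomal RNA modification, were also grouped after their values were seen. Of 16 measured 5 were lower and 0 higher (median -0.28), 4 without refed replicate 1 and 2 without refed replicate 3, fasted replicate 1 or fasted replicate 3. Zfas1 was at 8.96, 8.89 and 8.63 fasted and 7.40, 7.42 and 7.03 refed (-1.54 ± 0.14, adjusted p 5.12e-05), and Snhg12 fell by 1.44 ± 0.19 (adjusted p 5.30e-04). Both passed without each array. The families that follow were also grouped by name after their values were seen, and among all genes 3.29% were higher and 3.17% lower. Brighter genes passed more often. With only the 4549 genes in the top 25% by level tested, 596 were higher and 583 lower. Proteasome subunits had mean levels of 9.87 to 10.20 on the control arrays, against 6.24 to 6.26 over all genes. Counts of bright families are to be read beside that larger share. Of 40 measured proteasome subunits 8 were higher, 39 had a difference above 0 and the median was 0.26. The number higher was 15 without refed replicate 1 and as few as 4 without any 1 of the other control arrays. Of 76 ribosomal proteins of mitochondria 14 were higher (median 0.20), 28 without refed replicate 1 and 5 without fasted replicate 1 or 2. Among 39 ribosomal proteins of the cytosol 1 was higher (median 0.06), and 5 without refed replicate 1. Complex I subunits had 1 of 35 higher and 1 lower, and mitochondrial carriers 2 of 44 higher and 8 lower. Kruppel-like factors had 0 of 16 higher and 3 lower, and coat proteins of Golgi vesicles 3 of 8 higher and 0 lower.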
